A study of Mus musculus with 3 samples.

Results

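The transcripts compared here are those of activated mouse B cells grown with the drug flavopiridol and with its vehicle DMSO. The rule took every gene whose mean over the study's 3 libraries reached 1 RPKM, a read count scaled to gene length and library size. It kept 14790 genes of the 33700 listed, or of 33605 different symbols. The cells were CD43- B cells from the spleen of C57BL/6 mice, kept for 3 days in medium with the bacterial product LPS and the cytokine IL4. One library was made from cells given DMSO and another from cells given 30 nM flavopiridol, with no genetic change named for either. A JQ1+ library at 80 nM enters the expression filter and is otherwise shown only beside some values. The culture label of the drug samples repeats the vehicle wording, and the number of mice and whether the cultures shared them are not stated, so groups follow the treatment label.

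Flavopiridol is a flavone drug that blocks cyclin-dependent kinases, among them Cdk9, the catalytic part of P-TEFb. P-TEFb phosphorylates RNA polymerase II and its pausing factors so that a paused polymerase can move into the gene body, and a pool of it is held inactive by the 7SK RNA with the proteins Hexim1, Larp7 and Mepce. LPS and IL4 together make resting B cells grow, divide, switch their antibody class and begin to turn into antibody-secreting cells. The comparison asks which transcripts differed, by class of gene and by function, after growth with the drug.

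Each group was a single library, so no difference below has a replicate check and none carries a p-value. The size of a difference is log2((RPKM with flavopiridol + 1)/(RPKM with DMSO + 1)), called the log2 change. The words rose and fell are kept for genes with a value of at least 1 in size, a 2-fold rule. The pseudocount of 1 RPKM understates the change of genes of low level. Ratios of plain RPKM are given with a 95% interval that covers counting error only and not differences between cultures. RPKM carries no absolute scale, so a shift shared by every transcript is invisible here. In a bulk sample fewer cells of a type and less RNA per cell cannot be told apart.

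The deposited counts summed to 59786847 with DMSO and 50184508 with flavopiridol, with 22222 and 21944 genes counted at least once. Genes encoded in mitochondrial DNA took 3.90% and 4.74% of the counts. B cell genes were abundant in both libraries: Cd79b, a signalling chain of the antigen receptor, stood at 1545 RPKM with DMSO and 1908 with flavopiridol, and Ms4a1, which encodes CD20, at 486 and 829. Markers of other cells were mostly low, and their part in the results below was not tested. Summed over 18 T cell markers the level was 337 and 245 RPKM, of which Thy1 made up 268 and 196, and over 20 myeloid markers 50.6 and 45.5. The near-equal myeloid sums hide opposite moves. Of 6 kept myeloid markers 1 rose, Emr1 from 0.922 to 9.47 RPKM (63 and 528 counts), and 1 fell, Fcgr4 from 2.91 to 0.835. Csf3r, below the expression filter, had 145 counts with DMSO and 4 with flavopiridol. The 11 dendritic cell markers summed to 383 and 188 RPKM, of which Bst2, also an interferon-stimulated gene, made up 247 and 99.8. The 16 stroma and endothelium markers summed to 24.6 and 14.8 RPKM, the 14 erythroid ones to 9.12 and 8.41, the 12 of megakaryocytes and mast cells to 4.22 and 7.997, and the 13 of cytotoxic cells to 3.66 and 3.40. The granulocyte gene Ly6g and the T cell receptor genes Trbc1 and Trbc2 were near or at 0 in both.

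Most transcripts differed little. Of the 14790 genes, 525 rose and 426 fell, shares of 3.55% and 2.88%, and 6.43% together. Another 11856 genes, or 80.2%, lay within 1.5-fold of the DMSO level. The distribution was centred slightly above 0, with a median of 0.13 and quartiles of -0.13 and 0.38, and 63.7% of genes had a positive value. The 5th and 95th percentiles were -0.77 and 0.86, and the 1st and 99th were -1.55 and 1.53. Changes of at least 4-fold numbered 65 upward and 76 downward, and of at least 8-fold 9 upward and 16 downward. Falls were thus fewer than rises under the 2-fold rule but more numerous among the larger changes. Lower genes made up 44.8% of the calls, and 57.7% when the libraries were scaled by the median of gene-wise ratios, which moves the median of all genes by -0.13. The direction of the excess therefore depends on the scaling, and the groups of genes below are read against the median of 0.13. Counts of calls in a group are read against the 6.43% of all genes, so few or no calls in a short list are near that share.

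The spread was widest among genes of low level. Between 1 and 5 RPKM on average, 296 of 3423 rose and 170 fell, a share of 13.6%, and the interquartile range was 0.75. From 5 to 20 RPKM the share was 6.45% of 4080 genes, from 20 to 100 RPKM 3.27% of 5173, and at 100 RPKM or more 2.51% of 2114, where 22 rose and 31 fell. Rises outnumbered falls in both lower classes of level, with 137 and 126 from 5 to 20 RPKM, and falls did in both higher ones, with 70 rises and 99 falls from 20 to 100 RPKM. Counting error was largest at the low end. Of the 296 rises below 5 RPKM, 168 had an interval that did not reach a ratio of 1, against all 22 at 100 RPKM or more. Over all levels 363 of the 525 rises and 341 of the 426 falls had such an interval.

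**Figure D1:**
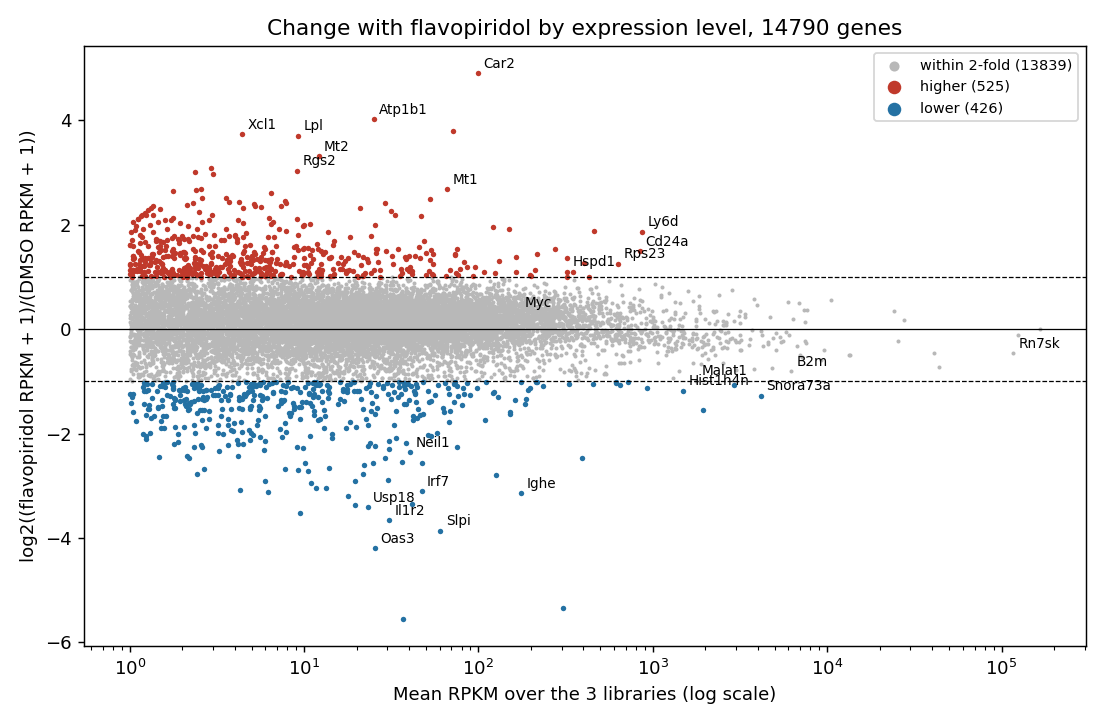
Log2 change with flavopiridol against the mean RPKM over the 3 libraries (log axis), with a point for each of 14790 genes. Genes past the 2-fold rule, 525 higher and 426 lower, stand out from 13839 within it, and the cloud is widest at the low end, with an interquartile range of 0.75 from 1 to 5 RPKM.

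Among the most abundant transcripts a few moved far. Ly6d, a lipid-anchored surface protein of B cells and their precursors, had 421 RPKM with DMSO and 1541 with flavopiridol, 3.66-fold higher (interval 3.48 to 3.84). Cd24a, the heat-stable antigen, had 446 and 1259, 2.82-fold higher (2.74 to 2.91). Ddt, a relative of the cytokine Mif, had 243 and 900. The chemokine Ccl22 had 72.1 and 277, and all 4 rose. In the other direction Rnf213, a very large ubiquitin ligase induced by interferon, fell from 309 to 44.0 RPKM, 7.03-fold lower (6.82 to 7.25). Ifi27l2a, an interferon-induced mitochondrial protein, fell from 941 to 170, and the protease inhibitor Serpinb6b from 172 to 50.7. Other abundant genes hardly differed: the ribosomal protein genes Rpl8, at 4395 and 4298 RPKM, and Rps24, at 1426 and 1422, lay within 0.05 of 0.

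A change of share shows where the sequencing went. The genes whose share of the counts dropped lost 10.3 percentage points in all, and the 10 largest losses made 2.26 of them. The heavy chain gene Ighm went from 1.70% to 1.20% of the counts, the 7SK RNA Rn7sk from 1.47% to 1.04%, the elongation factor gene Eef1a1 from 0.704% to 0.486%, Malat1 from 0.410% to 0.200% and Rnf213 from 0.185% to 0.0255%. The largest gains were mitochondrial: mt-Rnr2, the large ribosomal RNA, went from 1.22% to 1.51% and mt-Co1 from 1.44% to 1.57%. The chaperone gene Hsp90b1 went from 0.191% to 0.290% and Cd24a from 0.0285% to 0.0781%. The 10 largest gains added 0.867 points.

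The classes of genes, as typed in the deposited tables, differed in how often their members moved. Protein-coding genes had the lowest share called among types with over 100 genes, with 261 of 11325 rising and 271 falling, 4.70% in all. Their median was 0.13. At a mean of at least 5 RPKM pseudogenes had a lower share, 3.14% against 3.45% of protein-coding genes. Small nuclear RNAs had 30.9% of 188 genes past the 2-fold rule, microRNA genes 23.99% of 271, miscellaneous RNAs 25.4% of 59 and small nucleolar RNAs (snoRNAs) 20.7% of 362. These short genes gather few reads: the median DMSO count was 6 for microRNA genes, 7 for small nuclear RNAs and 24.5 for snoRNAs, against 1749 for protein-coding genes. Only 1 of 35 microRNA genes that rose and 2 of 30 that fell had an interval off 1, and only 2 of 38 and 1 of 20 small nuclear RNAs. Most of these calls were therefore not distinguishable from counting error at this depth. Counting error bore less on snoRNA rises and on the 73 genes of the antibody variable type, which holds kappa, lambda and heavy chain genes. An interval off 1 was found for 27 of 62 snoRNAs that rose, only 2 of 13 that fell, and all 18 variable genes that fell.

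**Figure D2:**
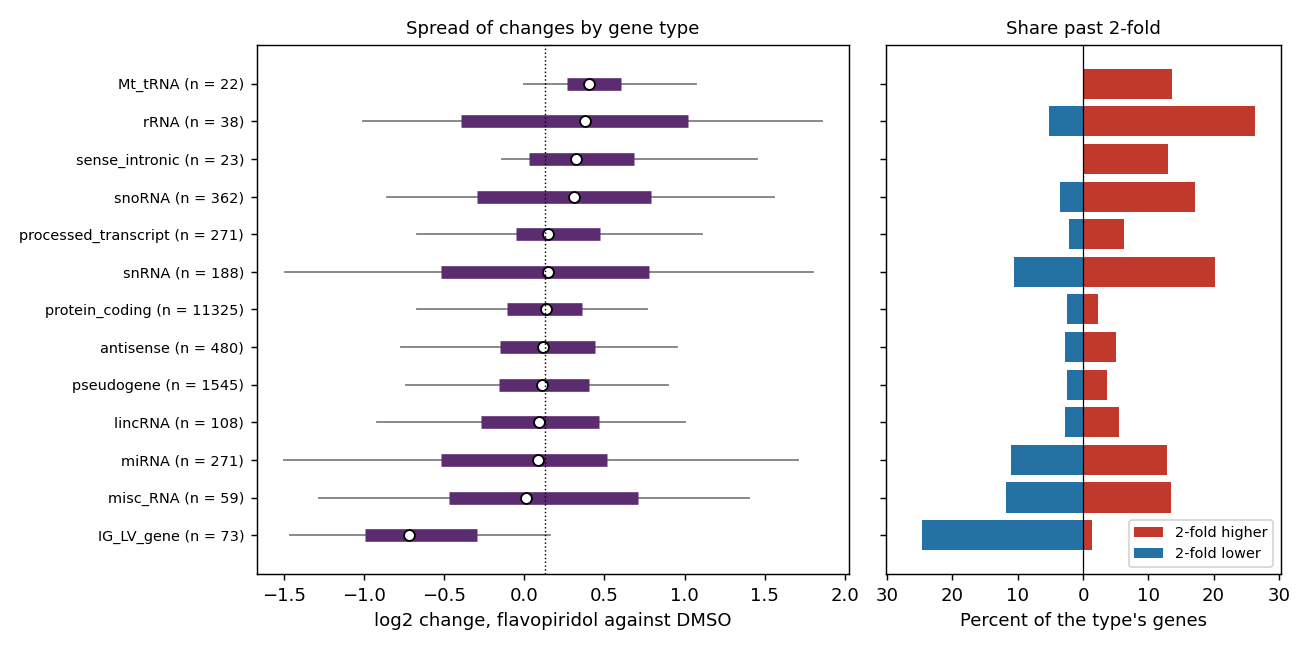
Log2 change by gene type for 13 types: whiskers span the 5th to 95th percentile, bars the quartiles, circles mark the median, and a dotted line marks the median of all genes, 0.13. The right panel gives the share past the 2-fold rule, from 4.70% of protein-coding genes to 31.6% of ribosomal RNA genes, and among the types drawn the antibody variable genes have the lowest median.

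SnoRNAs guide the chemical modification of ribosomal and small nuclear RNA and are mostly cut from introns of host genes. Their median was 0.31, with 62 of 362 rising and 13 falling. The C/D box snoRNAs, which guide methylation, had 12 of 62 rising, 1 falling and a median of 0.50, and the H/ACA box snoRNAs, which guide pseudouridylation, 6 of 36 rising, 1 falling and a median of 0.40. Snord12 had 26.9 RPKM with DMSO and 82.5 with flavopiridol, from counts of 51 and 128, a ratio of 3.07 (1.74 to 5.63). Snord100, in an intron of Rps12, rose from 22.5 to 61.4 RPKM and Snora61, in an intron of Snhg12, from 29.2 to 78.9, while Rps12 itself stood at 36.2 and 48.7. Over 269 snoRNAs lying within 173 kept host genes the snoRNA median was 0.35 and the host median 0.16. Of the 53 that were called, 43 rose and 10 fell, and the host was called in the same direction in 2 cases, in the other direction in 0 and not called in 51. Most snoRNAs past the rule thus lay in a host inside it, and reads in the overlap may have been given to either. Over the whole class only 27 of 62 rises and 2 of 13 falls had an interval off 1. Many of these 53 calls may therefore be counting error, and whether snoRNAs moved apart from their hosts was not tested.

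Among the most abundant snoRNAs was U17, which acts in cleavage of the ribosomal RNA precursor rather than in modification. Its copies Snora73a and Snora73b both lie on the minus strand within the host Snhg3, on GRCm38 at chr4:132352775-132352979 and chr4:132352322-132352526 in GENCODE M21. They are shown because their values moved apart although 198 of 205 positions are identical (96.6%). Capitals mark the 7 bases that differ, and both read 5′ to 3′.
Snora73a: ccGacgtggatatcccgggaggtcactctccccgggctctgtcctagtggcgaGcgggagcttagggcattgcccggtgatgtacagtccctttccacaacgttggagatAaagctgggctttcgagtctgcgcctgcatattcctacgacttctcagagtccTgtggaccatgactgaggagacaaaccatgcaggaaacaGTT
Snora73b: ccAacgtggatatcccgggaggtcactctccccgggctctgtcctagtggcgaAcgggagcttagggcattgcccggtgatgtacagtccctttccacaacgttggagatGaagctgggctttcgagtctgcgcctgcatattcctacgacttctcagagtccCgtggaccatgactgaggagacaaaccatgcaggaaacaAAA
Snora73a had 5576 RPKM with DMSO and 2303 with flavopiridol, 2.42-fold lower (2.32 to 2.53). Snora73b had 1530 and 2212, 1.45-fold higher (1.37 to 1.53), which is inside the 2-fold rule. The host Snhg3 fell from 1216 to 554 RPKM, 2.20-fold lower (2.11 to 2.29), so Snora73a moved with the host and Snora73b did not. How reads matching both copies were divided is not given in the sources used here, so the split between the copies is uncertain.

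Long intergenic RNAs had 6 of 108 rising and 3 falling, with a median of 0.09. Malat1, an abundant nuclear RNA, had 1666 RPKM with DMSO and 839 with flavopiridol, a change of -0.99 just inside the 2-fold rule, and 2835 with JQ1+. It took most of the drop of the class from 0.657% to 0.430% of the counts. The inactive-X RNA Xist stood at 162 and 160 RPKM and its antisense partner Tsix at 56.1 and 43.1. Of the microRNA genes, Mir142, a microRNA of blood cells, fell from 213 to 82.8 RPKM, and Mir17 had 9.05 and 1.39 RPKM from counts of 16 and 2, with an interval that reaches 1. Rnu11 and Rnu12, RNAs of the minor spliceosome, had 207 and 105 RPKM and 110 and 62.1 RPKM, changes of -0.98 and -0.82. Ribosomal RNA genes, a target of the depletion step, had 10 of 38 rising and 2 falling, at a median DMSO count of 5.5, and 2 of the rises and 0 of the falls had an interval off 1.

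Where an antisense gene and its partner were both called, they moved the same way, but most partners of called antisense genes were not called. Of 405 antisense genes overlapping 376 kept protein-coding genes, 14 rose and 10 fell. The partner was called the same way for 10, the other way for 0 and not called for 14. The interferon-induced genes Dhx58, Ifi35 and Oasl1 each lie under such an antisense gene that fell with them. Whether the counting used strand is not given in the sources used here, so reads of a gene and its antisense partner may not have been told apart. Pseudogenes, with 57 of 1545 rising and 37 falling and a median of 0.11, carry the same limit towards their parent genes. Kctd12, a subunit of GABA-B receptors that the tables type as a pseudogene, rose from 21.2 to 70.3 RPKM, 3.32-fold higher (3.02 to 3.65).

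At the RNA level the machinery that flavopiridol acts on had few calls, near the share of all genes. Of 18 kinase, cyclin and 7SK genes of transcription, 0 were called, with a median of 0.15 against 0.13 for all genes. From 20 to 100 RPKM 3.27% of all genes were called, so 0 of 18 does not set these genes apart. The 7SK RNA Rn7sk had 126090 RPKM with DMSO and 92049 with flavopiridol, 1.37-fold lower (1.36 to 1.38). Larp7, which binds and stabilises 7SK, had 83.2 and 126 RPKM, and Mepce, which caps it, 40.2 and 42.0. The 7SK-bound inhibitor gene Hexim2 had 10.01 and 4.74 RPKM, a change of -0.94, and the cyclin gene Ccnt1 43.5 and 49.8. RNA polymerase II subunit genes had 0 of 12 called but a median of 0.43, with Polr2l at 14.0 and 23.1 RPKM and Polr2e at 53.3 and 82.3. Among 24 elongation factors only Eaf2, a partner of the ELL elongation factors, passed the rule, from 17.7 to 43.6 RPKM.

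Early response genes, whose messages are short-lived and depend on fast pause release, moved in both directions. Of 37, Egr3 rose from 11.2 to 33.0 RPKM and Nr4a2 from 0.375 to 3.13, while Egr1 fell from 23.9 to 8.58 and Atf3 from 57.0 to 27.6. The related zinc finger factors Egr1 and Egr3 thus moved apart, 2.79-fold lower (2.41 to 3.24) and 2.96-fold higher (2.39 to 3.69). The list median was 0.22. None of the 10 kept genes of the MYC, MAX and MXD network was called: Mxd1, a repressor that competes with Myc, had 11.98 and 7.22 RPKM. Of 6 inhibitors of cyclin-dependent kinases, Cdkn2b, which blocks Cdk4 and Cdk6, rose from 7.47 to 19.5 RPKM (counts 219 and 467), and Cdkn1a had 14.7 and 28.0 RPKM with a change of 0.89.

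Interferon-stimulated genes fell almost throughout. Of 34 kept, 30 fell, 0 rose, and the median was -2.02 against 0.13 for all genes. The list holds sensors, effectors and regulators. Among the effectors Oas3, an oligoadenylate synthetase, had 72.4 RPKM with DMSO and 3.01 with flavopiridol, 24.04-fold lower (19.6 to 29.8). Oas1a went from 75.8 to 9.41 RPKM, the virus-entry factor Ifitm3 from 56.6 to 8.55 and the ubiquitin-like modifier Isg15 from 85.2 to 28.9, 2.95-fold lower (2.427 to 3.599). Of the RNA sensors, Dhx58 fell from 67.7 to 13.1 RPKM and Ddx58, which encodes RIG-I, from 59.6 to 19.5, whereas Ifih1 had a change of -0.61. Among the transcription factors that carry the interferon signal, Irf7 fell from 120 to 13.0 RPKM, 9.18-fold lower (8.04 to 10.5), Stat2 from 80.0 to 25.1 and Irf9 from 59.5 to 27.1. The members inside the rule included Adar (-0.89), Ifih1 and the chemokine gene Cxcl10 (0.31). Several of these genes have close relatives, such as Oas1a and the Ifit genes, among which the counting may have split reads. Of 6 kept dendritic cell markers 2 fell beside these genes, 1 of them itself in the interferon list: Bst2 fell from 247 to 99.8 RPKM, Batf3 from 55.9 to 11.1, while Flt3 was at 26.6 and 14.6 and Siglech near 0. The other kept markers were higher with flavopiridol, Xcr1 at 0.918 and 2.59 RPKM, Tcf4 at 45.0 and 51.9 and Zbtb46 at 6.63 and 6.85. The part of such cells in the interferon genes was not tested.

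**Figure D3:**
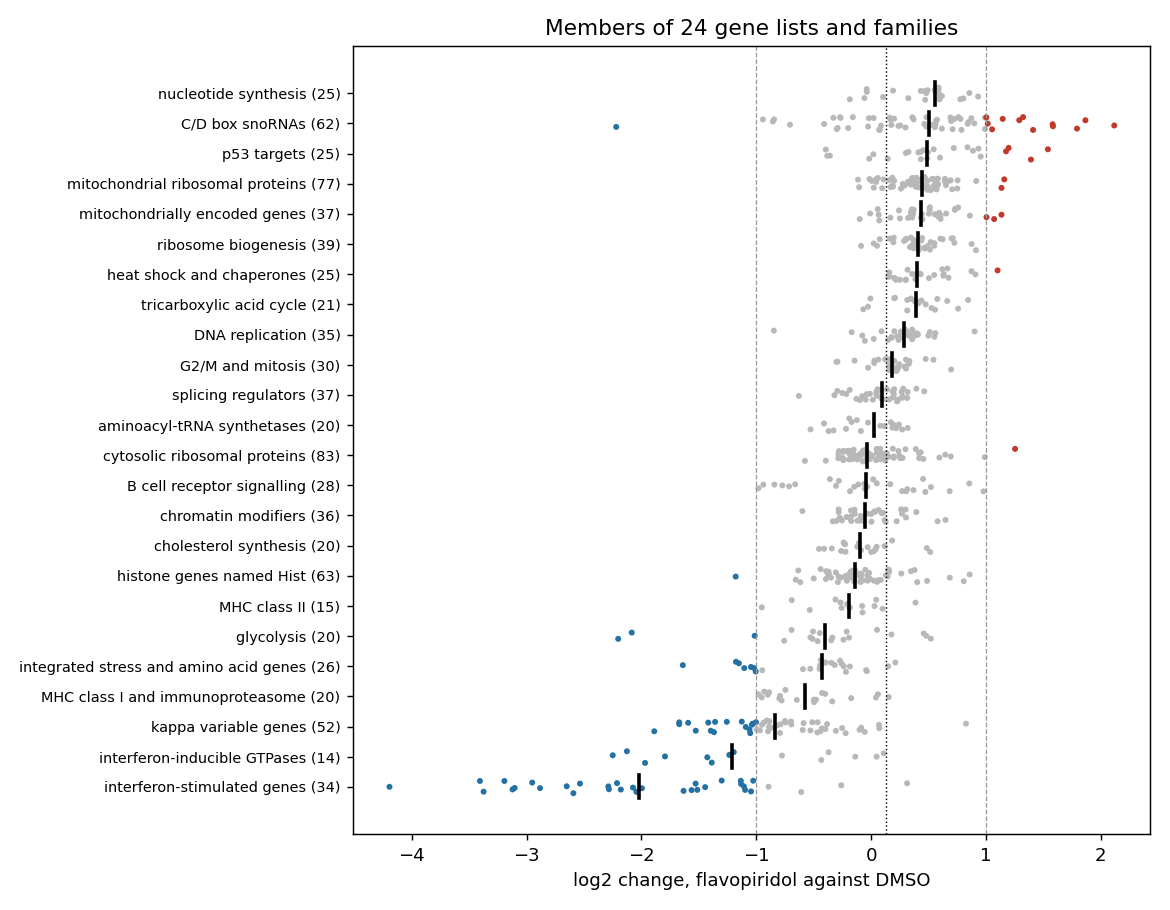
Log2 change of each kept member (dots) of 24 gene lists, with the list's median as a bar, the median of all genes as a dotted line and the 2-fold rule as dashed lines. The interferon-stimulated genes lie lowest, 30 of 34 beyond the rule, and lists such as ribosome biogenesis and heat shock sit just to the right of the dotted line within the rule.

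Promoters of the interferon genes carried the core GAAANNGAA of the interferon-stimulated response element. It was searched on both strands of a 300-base window, 250 bases before and 50 after each start, in RefSeq promoters of GRCm38.p6. It was in 8.57% of all 27025 promoters and in 14 of the 24 interferon-stimulated genes that had a promoter (58.3%). Genes that fell held it in 42 of 204 promoters (20.6%) and genes that rose in 13 of 190 (6.84%). A match describes the letters and is not a binding site shown by these data. The windows of Isg15 (chr4:156200769-156201068, minus strand) and Ifit3 (chr19:34583279-34583578, plus strand) are shown because each holds 3 cores, in capitals, overlapping in Isg15. They were chosen after the matches were known, and Irf7, for one, holds none.
Isg15: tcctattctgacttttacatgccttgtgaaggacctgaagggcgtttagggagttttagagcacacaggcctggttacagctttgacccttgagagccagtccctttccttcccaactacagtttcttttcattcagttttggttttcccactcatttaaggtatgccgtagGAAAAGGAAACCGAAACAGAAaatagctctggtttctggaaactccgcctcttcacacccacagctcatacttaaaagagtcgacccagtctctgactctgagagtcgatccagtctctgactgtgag
Ifit3: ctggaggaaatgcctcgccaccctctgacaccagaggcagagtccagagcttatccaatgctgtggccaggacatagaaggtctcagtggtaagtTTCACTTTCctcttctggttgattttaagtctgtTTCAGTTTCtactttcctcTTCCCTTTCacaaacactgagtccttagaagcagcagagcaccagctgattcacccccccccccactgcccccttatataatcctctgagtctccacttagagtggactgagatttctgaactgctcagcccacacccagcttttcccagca
Ifit3 went from 347 to 38 counts and from 9.43 to 1.25 RPKM, 7.54-fold lower (4.25 to 14.6). At least 2 cores occurred in 0.666% of all promoters.

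Gene families next to the interferon response showed graded falls. Of 14 interferon-inducible GTPases, which attack the vacuoles of intracellular microbes, 8 fell and 0 rose with a median of -1.21: Tgtp2 went from 21.1 to 3.64 RPKM, Gbp6 from 17.9 to 4.44, Gbp8 from 9.38 to 1.38 and Tgtp1 from 9.63 to 1.72. Antigen presentation by MHC class I moved the same way but less, with 0 of 20 members called and a median of -0.57. B2m, its light chain, had 8989 RPKM with DMSO and 5166 with flavopiridol, 1.74-fold lower (1.71 to 1.77), the heavy chain gene H2-K1 1878 and 986, and their regulator Nlrc5 78.5 and 39.3, just inside the rule. The related H2 genes share sequence, so their separate values are uncertain. MHC class II genes had 0 of 15 called and a median of -0.19, with Cd74 at 7756 and 5357 RPKM, H2-Oa at 106 and 54.1 and the class II regulator Ciita at 130 and 170.

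The Schlafen genes, regulators of lymphocyte growth and virus replication, split within the family. Slfn5 fell from 45.3 to 5.79 RPKM, 7.82-fold lower (6.63 to 9.28), Slfn8 from 71.9 to 19.5 and Slfn1 from 5.77 to 0.25. Slfn2, which keeps lymphocytes quiescent, had 178 and 292 RPKM and Slfn9 18.0 and 16.0. Of 7 STAT factors only Stat2 fell, and the median was -0.49, with Stat3 at 78.95 and 49.996 RPKM and Stat6, which carries the IL4 signal, at 96.8 and 68.4. Toll-like receptor and LPS-sensing genes had 1 of 19 fall, Irak3, a brake on that pathway, from 15.3 to 4.88 RPKM.

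Metallothioneins and some zinc transporters rose. Of 17 kept, 4 rose and 0 fell, with a median of 0.25. Mt1, a small protein that binds zinc and copper, had 20.1 RPKM with DMSO and 134 with flavopiridol, 6.68-fold higher (5.46 to 8.24), and its neighbour Mt2 had 1.88 and 27.7, 14.7-fold higher (7.18 to 35.1). Slc30a1, which exports zinc from the cell, rose from 8.63 to 19.5, and Slc39a8, which imports zinc and manganese, from 13.2 to 56.0. Both directions of zinc transport are thus among the rises. Mtf1, the metal-sensing factor that activates metallothionein genes, had a change of 0.02, and Slc30a4, another zinc exporter, was at 95.6 and 61.0 RPKM.

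The windows of Mt1 (chr8:94178839-94179138, plus strand) and Mt2 (chr8:94172368-94172667, plus strand), from RefSeq on GRCm38.p6, are shown for the cores of the metal response element, in capitals. The cores searched on both strands were TGCGCNC and TGCACNC, found in 15.5% and 12.4% of all promoters, in 27.3% and 12.5% of those of kept genes, and each in 5 of the 14 zinc genes with a promoter.
Mt1: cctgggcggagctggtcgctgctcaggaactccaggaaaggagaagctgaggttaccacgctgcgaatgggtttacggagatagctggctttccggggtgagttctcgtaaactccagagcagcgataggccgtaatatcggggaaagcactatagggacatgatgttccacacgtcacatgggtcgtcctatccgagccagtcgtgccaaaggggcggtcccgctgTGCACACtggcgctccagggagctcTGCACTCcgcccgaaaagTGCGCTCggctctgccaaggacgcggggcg
Mt2: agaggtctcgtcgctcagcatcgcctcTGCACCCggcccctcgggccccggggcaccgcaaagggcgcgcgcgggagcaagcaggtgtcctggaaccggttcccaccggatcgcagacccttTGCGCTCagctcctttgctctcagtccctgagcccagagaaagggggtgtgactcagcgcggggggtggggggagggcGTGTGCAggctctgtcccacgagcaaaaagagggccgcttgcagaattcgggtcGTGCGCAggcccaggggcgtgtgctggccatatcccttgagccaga
Mt1 holds 3 cores and Mt2 holds 4, where 1.998% of all promoters hold 3 or more. Slc30a1 holds 2, Slc39a8 holds 0, and Slc30a4, which did not rise, holds 3. Among all genes that rose the 2 cores were in 26.8% and 15.8% of promoters, near the shares of kept genes. Among those that fell they were in 13.2% and 8.82%.

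Ion transport genes held the highest log2 change of all kept genes. Car2, a carbonic anhydrase that interconverts carbon dioxide and bicarbonate, went from 8.68 to 289 RPKM, and its relative Car3 from 1.01 to 5.47. Car13 had 69.2 and 104 RPKM. Atp1b1, the beta chain of the sodium pump, went from 2.81 to 61.1 RPKM, 21.8-fold higher (16.4 to 29.5). The gamma-like regulator Fxyd5 had 102 and 51.4 RPKM, a change of -0.97. In all 3 of 11 rose and 0 fell, with a median of 0.57, and 8 further listed genes were below the expression filter.

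Genes of growth metabolism shifted together by less than 2-fold. Ribosome biogenesis had 0 of 39 called but 38 of 39 above 0 and a median of 0.41, with Utp20, a part of the small subunit processome, at 45.3 RPKM with DMSO and 86.3 with flavopiridol, and Nop10, a protein of H/ACA particles, at 98.3 and 181. Nucleotide synthesis had 0 of 25 called and a median of 0.56: Gart, which catalyses steps of purine synthesis, was at 93.8 and 180 RPKM, 1.92-fold higher (1.83 to 2.01), Shmt1 at 64.0 and 117 and Umps, of pyrimidine synthesis, at 63.0 and 111. Cytosolic ribosomal proteins did not share the shift. Their median was -0.03 over 83 members, and only Rps23 passed the rule, from 387 to 924 RPKM, a gene with processed copies among which reads may have been split.

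Mitochondrial genes of both genomes lay above the median of all genes. The median was 0.44 for 77 mitochondrial ribosomal proteins, of which 74 were above 0 and Mrpl49 (50.2 to 113 RPKM) and Mrpl42 (145 to 320) rose. It was 0.39 for 21 genes of the tricarboxylic acid cycle, 0.38 for 18 ATP synthase subunits and 0.29 for 45 genes of complex I, with 0 called in each. The 37 genes encoded in mitochondrial DNA had a median of 0.43, and the 3 that rose were the transfer RNAs mt-Te, mt-Tf and mt-Ts1. Of 15 cytochrome oxidase subunits 11 were above 0 and 1 fell: Cox6a2, a muscle form, went from 58.3 to 12.1 RPKM, 4.81-fold lower (3.53 to 6.67), and was at 0.806 with JQ1+.

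Glycolysis genes lay lower, with 3 of 20 falling, 0 rising and a median of -0.40. Aldoa, an aldolase, had 1035 RPKM with DMSO and 512 with flavopiridol, 2.02-fold lower (1.97 to 2.07). Its relative Aldoc fell from 31.7 to 6.72, and Slc16a3, which exports lactate, from 11.03 to 1.62. Tpi1 at 455 and 269 RPKM and Pgk1 at 76.3 and 46.9 were inside the rule. Hypoxia-response genes were mixed: Bnip3, of mitochondrial autophagy, fell from 23.7 to 10.5 RPKM, Vegfa had 84.8 and 46.0, and Ndrg1 rose from 1.32 to 5.51. The core ACGTG of the hypoxia response element, read on both strands, was in 11 of 19 glycolysis promoters (57.9%), against 26.3% of the promoters of kept genes and 19.7% of all. Among all genes that fell it was in 34 of 204 promoters (16.7%), less often than in kept genes, and among those that rose in 46 of 190 (24.2%).

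Some amino acid stress genes fell. Of 26 genes of the integrated stress response, 7 fell and 0 rose, with a median of -0.42. Chac1, which degrades glutathione, went from 76.1 to 23.8 RPKM, 3.20-fold lower (2.77 to 3.71), Trib3, an inhibitor in the same pathway, from 29.4 to 12.4, Cth, of cysteine synthesis, from 68.4 to 30.3 and Asns, asparagine synthetase, from 185 to 91.7. Amino acid carriers were among the 6 of 169 solute carriers that fell, such as Slc7a3 (24.96 to 7.91 RPKM) and Slc6a9 (12.6 to 4.88). The aminoacyl-tRNA synthetases, in part under the same control, had 0 of 20 called and lay between Cars at 90.8 and 62.7 RPKM and Wars at 66.9 and 83.7.

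Chaperones were higher by small amounts, and genes of division lay closer to the median of all genes, 0.13. All 25 heat shock and chaperone genes were above 0, with a median of 0.40, and Hspd1, the mitochondrial chaperonin, rose from 238 to 512 RPKM, 2.15-fold higher (2.08 to 2.23). Hsp90aa1 had 321 and 498 RPKM, while the near-identical Hspa1a and Hspa1b had 4.02 and 8.21 RPKM and 4.45 and 9.23. Medians were 0.29 for 35 DNA replication genes, 0.18 for 30 of G2 and mitosis and 0.22 for 18 cell cycle kinases and cyclins, with 0 called in each. Cdk6 had 14.9 and 26.7 RPKM, Ccne1 41.4 and 68.9, and Pole2, a subunit of DNA polymerase epsilon, 188 and 104. Bcl2l11, which encodes the death-promoting protein Bim, was the only one of 14 BCL2 family genes past the rule, rising from 81.8 to 205 RPKM, 2.502-fold higher (2.42 to 2.59). Among p53 targets the kinase gene Plk2 rose from 16.2 to 49.0, and Phlda3, an inhibitor of Akt, from 15.8 to 43.2.

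**Figure D4:**
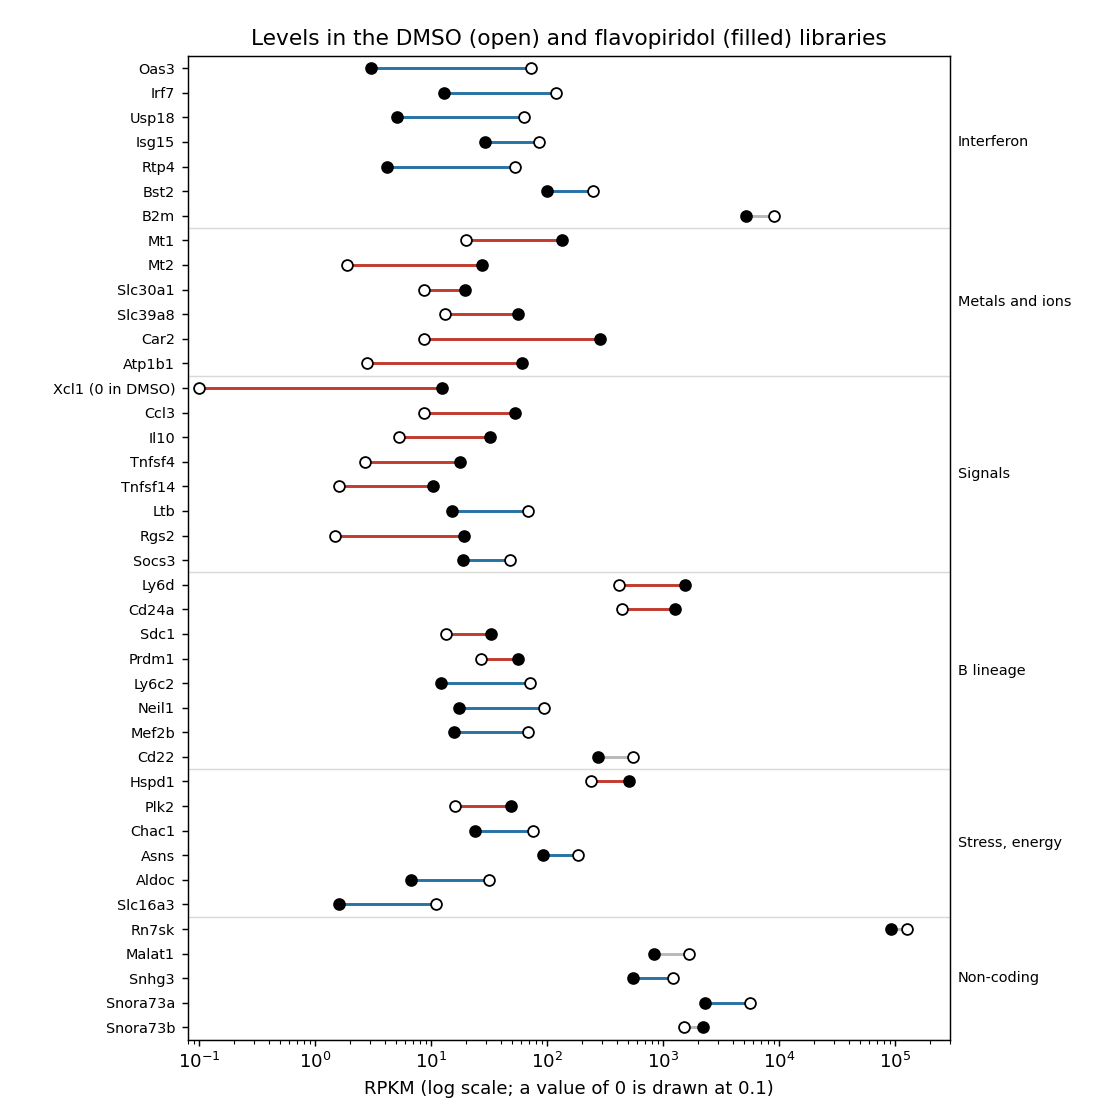
RPKM (log axis) of 40 genes from the groups described, open symbols for DMSO and filled for flavopiridol, with 0 drawn at 0.1. Oas3 and Usp18 show filled symbols far left of the open ones, and Car2, Atp1b1 and Mt2 far right.

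Kappa light chain variable genes lay mostly below the median of all genes. Of 52 kappa variable genes, 17 fell and 0 rose, and the median was -0.84. Members of the Igkv4 group made up most of the falls: Igkv4-86 went from 18.6 to 4.31 RPKM, 4.33-fold lower (2.10 to 10.04), and Igkv4-57 from 166 to 75.5, 2.20-fold lower (1.83 to 2.65). With JQ1+ the same genes stood at 29.0 and 353 RPKM. Heavy chain variable genes had 2 of 22 fall and 1 rise, with a median of -0.63, and Ighv3-6 went from 619 to 294 RPKM. Variable genes are much alike, the tables count them without assembly of whole chains, and the repertoires of the cultures may differ by the cells they began with, so single genes are uncertain.

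Signalling genes of the antigen receptor stayed inside the 2-fold rule, some of them narrowly. None of 28 was called, while Cd22, an inhibitory receptor, had 548 RPKM with DMSO and 277 with flavopiridol (-0.98), Cd79a 477 and 266, Fcgr2b, the inhibitory antibody receptor, 53.9 and 107 (0.98) and the kinase Syk 54.5 and 99.5. The paired receptor chains Cd79a and Cd79b thus lay on opposite sides of 0. Of 24 B cell identity genes, only Fcrla rose, from 16.6 to 36.0 RPKM, while Ebf1 had 67.0 and 38.3, Pax5 137 and 164 and Foxp1 46.0 and 87.7. The germinal centre list had 3 of 16 fall, among them Neil1, a DNA glycosylase (93.3 to 17.4 RPKM, 5.37-fold lower, 4.58 to 6.32), and Mef2b, an activator of Bcl6 (68.2 to 15.9, 4.28-fold lower, 3.55 to 5.21), while Mybl1 rose from 5.86 to 16.5. Mef2b was at 71.0 RPKM with JQ1+.

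Plasma cell genes were mixed, with 5 of 19 rising, 1 falling and a median of 0.41. Of the 19, 12 were above 0 (63.2%), near the 63.7% of all genes. The summed level of the list was 4737.5 RPKM with DMSO and 3964.1 with flavopiridol. Sdc1, the surface marker CD138, rose from 13.4 to 32.6 RPKM, Cxcr4, the receptor that leads plasma cells to bone marrow, from 54.7 to 126, and Epcam from 3.21 to 9.15. Ly6c2 fell from 71.6 to 12.1, 5.92-fold lower (4.49 to 7.93), and has a near-identical neighbour, Ly6c1, at 11.8 and 5.74. Among genes of resting and migrating lymphocytes S1pr1, the exit receptor, rose from 20.9 to 53.6 RPKM, Klf2 had 62.9 and 115 and Ccr7 68.6 and 122, while Satb1, a chromatin organiser, fell from 108 to 44.7, 2.42-fold lower (2.33 to 2.52). Endoplasmic reticulum genes had 0 of 42 called and a median of 0.26, from Herpud1 at 483 and 258 RPKM to Hsp90b1 at 1344 and 2101.

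Several secreted and surface ligands of immune signalling rose. Of 36 cytokines and chemokines listed, 20 were below the expression filter. Of the 16 kept, 5 rose and 0 fell, with a median of 0.48, beside 3.55% of all genes rising. A gene near 0 with DMSO is kept only if a drug library lifts its mean, so the filter favours rises in this list. Xcl1, a chemokine that attracts dendritic cells, had 0 counts with DMSO and 111 with flavopiridol (12.4 RPKM). Ccl4 rose from 2.02 to 10.9 RPKM. Of 23 kept TNF ligand and receptor genes 4 rose (17.4%) and 1 fell. A further 7 listed were below the expression filter, which favours rises here too. The rises were all ligands: Tnfsf4, the ligand of OX40, from 2.68 to 17.9 (6.70-fold higher, 4.57 to 10.1), Tnfsf14 from 1.62 to 10.5, Tnfsf8 and Tnfsf11. The fall was Ltb, the beta chain of lymphotoxin, from 68.0 to 15.2, 4.48-fold lower (3.73 to 5.40). Of the TNF receptor symbols 0 of 14 were called, the largest value being 0.98 for Tnfrsf4, the receptor of Tnfsf4, at 3.65 and 8.17 RPKM.

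Of 21 co-stimulation and checkpoint genes 2 rose and 2 fell, with a median of 0.01 that turned sign under another scaling. Pdcd1, which encodes PD-1, rose from 2.93 to 13.3 RPKM, 4.55-fold higher (3.22 to 6.56), while Pdcd1lg2, its ligand PD-L2, fell from 14.8 to 3.21, 4.62-fold lower (3.16 to 6.96). Cd86 had 77.9 and 42.0 RPKM. Regulators of G protein signalling, which shorten chemokine receptor signals, had 3 of 7 kept rise: Rgs1 from 2.96 to 13.9 RPKM, Rgs2 from 1.49 to 19.4 and Rgs16 from 1.77 to 14.2. A further 7 listed regulators were below the expression filter. Interleukin receptors had 2 of 20 fall, the decoy receptor Il1r2 and the shared chain Il2rb from 28.0 to 6.17, 4.53-fold lower (3.67 to 5.64). The integrin chain Itgb3 fell from 96.8 to 29.0 RPKM, 3.34-fold lower (3.12 to 3.58), and Rab27a, which docks secretory vesicles, from 67.9 to 24.7. Among IL4 response genes Socs3, a feedback inhibitor of cytokine signals, fell from 47.7 to 18.7 RPKM, and the low-affinity IgE receptor Fcer2a had 606 and 324.

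Some large families and lists had few or no members past the rule. Of 286 zinc finger genes named Zfp, 1 rose and 1 fell, with a median of 0.16, the fall being Zfp683, which encodes Hobit, from 6.04 to 0.475 RPKM. Histone genes had 1 of 63 fall, Hist1h4n from 2050.1 to 905 RPKM, 2.26-fold lower, and a median of -0.14. Chromatin modifiers had 0 of 36 called and splicing regulators 0 of 37, with medians of -0.05 and 0.09, the latter turning sign under another scaling. Proteasome subunits had 0 of 36 called and a median of 0.25.

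Lipid and redox genes gave a few large single changes. Lpl, which releases fatty acids from lipoproteins, went from 0.399 to 17.3 RPKM, 43.4-fold higher (27.9 to 71.4), and Mgll, which splits monoglycerides, from 0.859 to 3.36. Elovl6, which lengthens fatty acids, fell from 19.999 to 9.48 RPKM. Cholesterol synthesis had 0 of 20 called and oxidative stress genes 0 of 19, the latter with a median of 0.28 and with glutathione reductase, Gsr, at 24.2 and 41.2 RPKM. Lysosome and autophagy genes had 0 of 33 called, from Map1lc3a at 7.49 and 3.82 RPKM to Psap, the precursor of the saposins, at 430 and 635.

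Single members stood out in other families named by symbol. Slc19a2, a thiamine carrier, rose from 13.3 to 37.5 RPKM. Serpine2 rose from 1.69 to 10.05 and Serpinb9, an inhibitor of granzyme B, fell from 40.4 to 19.2. The phosphatase Dusp14 rose from 7.85 to 22.003, the annexin partner S100a10 from 38.5 to 86.2 and Rab20 from 33.8 to 71.4. Falls again included genes known to respond to interferon: Ube2l6, which conjugates Isg15, went from 25.4 to 6.99 RPKM and the helicase Ddx60 from 7.79 to 2.70. Of 50 DEAD-box and DEAH-box helicases the 3 that fell were Ddx60, Ddx58 and Dhx58. Of 45 ubiquitin-specific proteases the single fall was Usp18, which removes Isg15, from 63.5 to 5.09, and of 53 translation initiation symbols it was the RNA-activated kinase Eif2ak2, from 130 to 60.5.

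Few kept genes were silent in either library, because the filter keeps a gene at 0 only if another library is high enough. Of the 33700 genes listed, 22222 had a count with DMSO and 21944 with flavopiridol, so most silent genes were left out by the filter. With DMSO 48 kept genes had no count and with flavopiridol 37, and apart from Xcl1 none of them had more than 20 counts in the other library. The variable gene Ighv8-13 was at 0 with DMSO and at 19 counts with flavopiridol, and the microRNA gene Mir5106 at 9 counts and 0.

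The JQ1+ library gives a second reading of levels for some of these genes, set out side by side because both drugs were compared with the same DMSO library. In DMSO, JQ1+ and flavopiridol, Hspd1 had 238, 218 and 512 RPKM, Gart 93.8, 76.5 and 180, and Utp20 45.3, 42.6 and 86.3. These 3 were lower with JQ1+ than with DMSO. Slc39a8 had 13.2, 7.09 and 56.0 RPKM and Slc30a1 8.63, 7.61 and 19.5, while Mt1 had 20.1, 43.7 and 134. Cdkn2b stood at 7.47, 19.8 and 19.5 RPKM and Pdcd1 at 2.93, 25.1 and 13.3, both above DMSO in either drug. Irf7 had 120, 8.87 and 13.0 RPKM and Oas3 72.4, 0.761 and 3.01, both below it.

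Gene structure was related to the response by small amounts. Protein-coding genes averaging 5 RPKM or more, 9261 of 9324 with a length and GC content by identifier, were divided into 5 bins of nearly equal number. By GC content the median log2 change was 0.21 in the lowest bin and 0.01 in the highest. From fewest to most exons the median went from 0.19 to 0.06, and from the shortest to the longest exonic length from 0.17 to 0.07. These differences were smaller than the quartile range within any bin. Calls were spread unevenly. In the shortest bin of exonic length 49 of 1851 genes rose and 56 fell, and in the longest 24 of 1853 rose and 11 fell. The median DMSO count was 1367 in that shortest bin and 4118 in the longest. By GC content 24 of 1852 genes rose and 23 fell in the lowest bin, and 21 of 1853 rose and 56 fell in the highest. Whether GC content and length affected counting in these libraries was not tested.

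**Figure D5:**
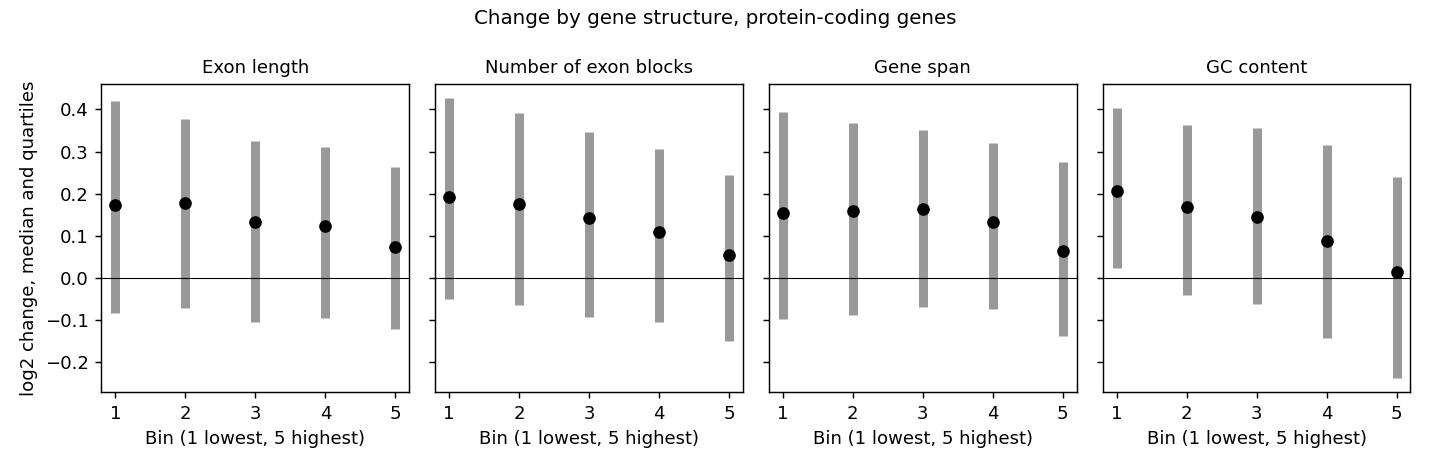
Median log2 change (points) and quartiles (bars) by bin of exonic length, exon number, gene span and GC content for 9261 protein-coding genes averaging 5 RPKM or more, in 5 bins each. Medians are lower in the last bin than in the first in each panel, most for GC content (0.21 and 0.01), and the quartile bars of all bins in a panel overlap.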

How the data were processed

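Per the labels' protocols, Trizol was used to extract total RNA, Ribo-Zero to deplete ribosomal RNA, and Illumina libraries were sequenced. The deposited tables give, per the file headers, a count and an RPKM for each gene. The authors' RPKM is relative to gene length and a library total. Mouse build mm9 is named per the submitters' processing notes. For the aligner, counter, annotation and strand setting, a statement is not given in the sources used here.

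Tables were joined by identifier, and of the 94 symbols with several entries the one with the highest mean was used. With 1 library per group, no count model was fitted. Intervals are exact conditional binomial 95% intervals of the deposited counts divided by 2.83, the mean ratio of the count sum to the total behind the RPKM, since the counts are not independent fragments. Exon lengths, GC content and overlaps came from GENCODE M21 by identifier (98.6% of kept genes) and promoters from RefSeq. Both are on GRCm38, so no position refers to the authors' build.

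Members, 56 gene lists (1201 of 1236 symbols matched, 1039 kept) and 36 families by symbol were chosen with earlier results of these data known. Among genes with a proper name averaging 5 RPKM or more, the text names the 5 largest rises and falls in each class of level, the 3 largest in each gene type, up to 4 members of each list, abundant genes near 0 and the kinase, inhibitor and MYC network genes. Other named genes were chosen after their values were seen. A list of class switch genes, and some genes that this rule would name, are not reported here. Python 3.11.15, pandas 2.3.3, numpy 2.4.6, scipy 1.17.1 and matplotlib 3.10.9 were used, and the calculation was checked on simulated data. Alternatives varied the pseudocount, filter, scaling, fold and choice of entry per symbol.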

Additional observations from a re-analysis of the deposited data

How the results depend on the processing

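The counts of genes past the rule depended on the fold, the pseudocount and the filter. Against 525 higher and 426 lower genes, a 1.5-fold rule gave 1816 and 1118, a pseudocount of 5 RPKM gave 139 and 183, and a filter at a mean of 5 RPKM gave 229 and 256. A pseudocount of 0.1 RPKM gave 867 higher genes. The share of calls that were lower went from 44.8% to 56.8% with the pseudocount of 5 and to 57.7% with scaling by the median of ratios. The median of all genes went from 0.13 to 0 without a filter and to 0.00013 with the median of ratios. Scaling by the sum of counts or by protein-coding counts moved the median by -0.04 and -0.06. Of 133 named genes past the rule, 21 were lost with the pseudocount of 5 and 8 with the median of ratios. Protein-coding counts lost 3, the sum of counts 1, and the rule that the counting interval also had to leave 1 lost 8. None of the 133 changed direction, but none could. A call is at least 1 in size, the largest scaling factor was -0.14 in log2, and the other settings cannot turn a sign. Of 92 list and family medians, 15 changed sign under a scaling, among them those of elongation factors, B cell identity and splicing regulators. Of the 92, 0 changed side of the median of all genes. A common factor moves both medians together, so a change of side was unlikely beforehand. No paired analysis was possible because each group has 1 library, and for the same reason no replicate could be left out.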

Other observations

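Of the 951 genes past the 2-fold rule, 367 were in no list or family. Among these, 189 were protein-coding with a mean of at least 5 RPKM, 83 higher and 106 lower. The genes below were chosen after their values were seen. The falls include genes known to respond to interferon: Ido1, which degrades tryptophan, fell from 52.2 to 6.13 RPKM, the PYHIN family genes Pyhin1 from 105 to 17.0, Mnda from 67.5 to 14.6 and Ifi204 from 18.3 to 2.03, and the RNA helicase Mov10 from 41.6 to 10.6. Gsn, which severs actin filaments, fell from 40.8 to 6.10 RPKM and stood at 27.4 with JQ1+. Among the rises, Id2, an inhibitor of E proteins, went from 11.2 to 54.5 RPKM, Ahr, the receptor for aryl hydrocarbons, from 6.19 to 22.1, and the peptide hormone gene Adm from 12.4 to 63.0. Hnrnpll, a regulator of splicing in lymphocytes, rose from 4.53 to 21.1 RPKM and was at 4.13 with JQ1+. Rxra, a nuclear receptor partner, rose from 4.65 to 21.9 and was at 5.80 with JQ1+. The glutathione transferase Gstt3 rose from 8.35 to 45.5 and Ddt from 243 to 900, with 8.69 and 242 in JQ1+.

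In 2 further genes the DMSO library stood apart from both drug libraries. Gm26461, a miscellaneous RNA, had 873 RPKM with DMSO, 20.4 with flavopiridol and 22.3 with JQ1+. The pseudogene Rpl27-ps2 had 6.28, 99.8 and 109 RPKM. Pseudogenes share reads with their parents, so the latter values are uncertain.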
